A study of Homo sapiens with 12 samples.

Results

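The 9 receptor tyrosine kinases and 1 receptor adaptor, insulin receptor substrate 2 (IRS2), were followed in HT1080 cells after knockdown of mutant NRAS. The members were taken by gene symbol, namely ERBB2, ERBB3, PDGFRA, PDGFRB, FGFR1, MET, AXL, IGF1R, INSR and IRS2, which are 10 of the 56227 entries of the table. HT1080 is an established human fibrosarcoma line that carries an activating NRAS mutation. RNA was sequenced from 12 libraries in 4 groups of 3. The cells received a control siRNA (siNC) or an siRNA directed at the mutant NRAS (siQ61K), and each siRNA was combined with DMSO or poly(dA:dT). The latter is a double-stranded DNA polymer that activates cytosolic DNA sensors. The study asked about the interferon response after NRAS knockdown, and the question here is whether receptor transcripts rise when the output of RAS falls. All groups come from 1 cell line and 1 siRNA against NRAS is named, and whether replicate libraries stem from separate cultures is not given in the sources used here. P-values therefore reflect only library-to-library spread, possibly technical.

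Receptor tyrosine kinases span the cell membrane, bind growth factors outside the cell and phosphorylate themselves and docking proteins inside it, which recruits the RAS-ERK and PI3K-AKT pathways. ERK activity in turn induces feedback inhibitors, and in tumour cells treated with RAF or MEK inhibitors some receptors, ERBB3, PDGFRB and AXL among the best known, can rise when that feedback is lost. FOXO transcription factors, which AKT keeps out of the nucleus, are known to raise transcription of INSR, IGF1R, ERBB3 and IRS2.

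Levels are in TPM, a transcript abundance relative to the rest of the library and corrected for transcript length. Fold changes are differences of log2(TPM + 1), tested with limma in 1 model over all 12 libraries, and a gene was called at a Benjamini-Hochberg adjusted p below 0.05 over 14722 genes. An exact permutation test of 3 libraries against 3 cannot give a p below 0.1, so it decides nothing here.

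NRAS fell from 59.6, 60.6 and 41.4 TPM under siNC with DMSO to 15.5, 15.2 and 19.9 TPM in the siQ61K libraries with DMSO, and from 43.0, 45.9 and 51.7 TPM to 20.1, 20.3 and 23.5 TPM with poly(dA:dT), with no overlap in either setting. Of 10 transcripts that read out ERK activity, 6 were called lower and none higher with the knockdown in DMSO, where 14.8% of all genes were called lower. With poly(dA:dT) 8 were called lower and none higher, where 12.6% of all genes were called lower. DUSP6, 1 of the 10, was low and could be tested only through siNC libraries. SPRY2, an ERK-induced feedback inhibitor, changed by -1.72 and -1.69 on the log2 scale. The cells carried the transcripts of a mesenchymal line: 9 of 10 mesenchymal markers passed the filter on low values and summed to 9339 to 15389 TPM, while 8 epithelial markers summed to 0.797 to 4.38 TPM, with GRHL2 at 0 throughout. Of 6 endothelial markers 5 had values, and these summed to at most 1.04 TPM, while blood markers summed to at most 0.912 TPM. TIE1, an endothelial receptor kinase outside that marker list, was at 34.5 to 94.2 TPM, so endothelial transcripts were not all near the floor. The libraries differed in how their levels depended on the GC content of transcripts. Spearman's rho between GC content and a library's deviation from the average was 0.292 to 0.517 under siQ61K with DMSO and -0.490 to -0.031 under siNC with DMSO. Every comparison was therefore also run after each library had been smoothed for GC content and transcript length, called the GC-corrected value below. The third siQ61K library with DMSO and the second siQ61K library with poly(dA:dT) had the highest and lowest scaling factors of the 12, 1.18 and 0.896, and values without this pair are given where they matter.

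AXL, a receptor for the ligand GAS6, was by far the most abundant member, with a mean of 204 TPM over the 12 libraries and a range of 168 to 282 TPM. It made up 60.3% to 67.9% of the summed TPM of the 9 receptors in each library. MET, the receptor for hepatocyte growth factor, followed with a mean of 51.7 TPM and a range of 39.3 to 69.0 TPM. FGFR1, a fibroblast growth factor receptor, had a mean of 33.2 TPM, and its range of 21.2 to 54.2 TPM overlapped that of MET. ERBB2, the ligandless partner of the other ERBB receptors, had a mean of 20.3 TPM and a range of 11.8 to 36.3 TPM, which overlapped that of FGFR1. Over all libraries the range of AXL was separated from that of MET, that of ERBB2 from that of IRS2 below it, and that of ERBB3 from that of PDGFRA, while the ranges of the other neighbours in this order overlapped.

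The remaining members were low. IRS2 had a mean of 4.71 TPM and a range of 2.93 to 8.62 TPM, and PDGFRB, a platelet-derived growth factor receptor, had a mean of 2.95 TPM and a range of 1.33 to 7.27 TPM. IGF1R, the receptor for insulin-like growth factors, had a mean of 2.06 TPM but varied from 0 to 8.07 TPM over the 12 libraries and from 0.186 to 8.07 TPM within siQ61K with DMSO alone, so its mean describes few of them. ERBB3, a neuregulin receptor with a weak kinase, had a mean of 0.782 TPM and reached 1 TPM in 3 libraries, all of them siNC with poly(dA:dT). It passed the filter of at least 1 TPM in 3 libraries through that group alone. PDGFRA was listed at no more than 0.247 TPM and at 0 in 3 libraries, and INSR, the insulin receptor, at no more than 0.0550 TPM and at 0 in 9 libraries, so both were left untested and 8 of the 10 members were tested. Listed low values need care, since ACTB, which every cell uses, was listed at only 32.7 to 74.1 TPM beside 4382 to 9879 TPM for GAPDH. Among close relatives outside the members, ERBB4 was listed at no more than 0.0283 TPM, and IRS1, at 4.06 to 12.3 TPM, had a level similar to that of IRS2.

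**Figure D1:**
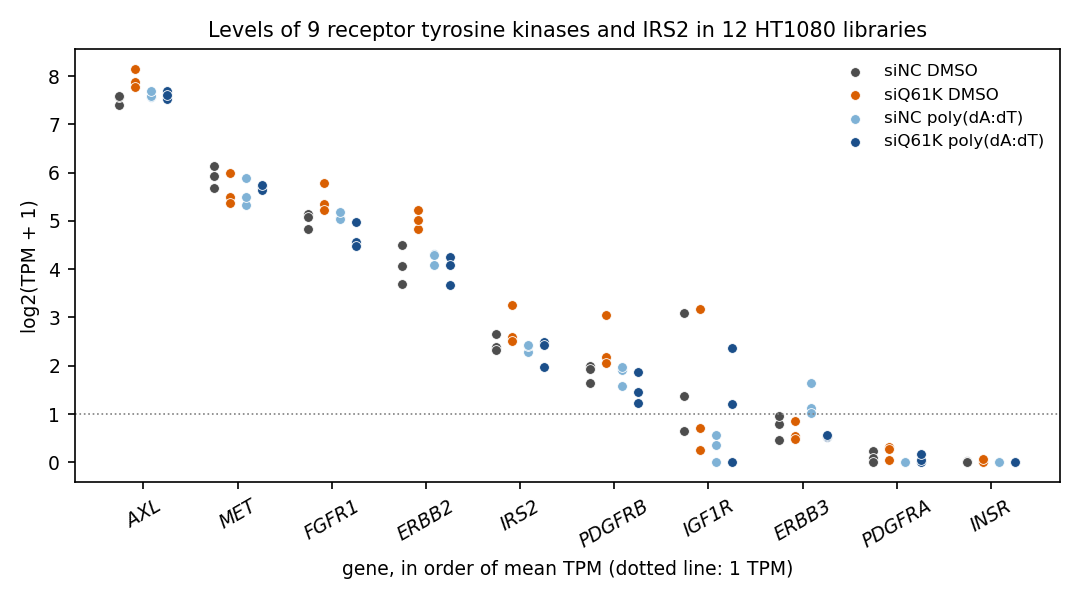
Level of each of the 10 members as log2(TPM + 1) in the 12 libraries (points), coloured by group, with genes in order of mean TPM and a dotted line at 1 TPM. AXL lies between 168 and 282 TPM in every library, MET, FGFR1 and ERBB2 lie below it, IGF1R spreads from 0 to 8.07 TPM, and PDGFRA and INSR reach at most 0.247 and 0.0550 TPM.

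Knockdown of mutant NRAS with DMSO raised ERBB2 and AXL, and no member was called lower. ERBB2 was at 12.03, 15.8 and 21.6 TPM in the siNC libraries and 36.3, 27.5 and 31.4 TPM in the siQ61K libraries. Every knockdown library was above every control library, and the control libraries were themselves spread over a wide range. The knockdown mean was 1.93 times the control mean. On the log2 scale the rise was 0.93 (SE 0.20, adjusted p = 0.0043). ERBB2 was called in all 23 alternative analyses, at 0.58 to 1.14, and the lowest of these was the GC-corrected value of 0.58 (adjusted p = 0.0168).

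AXL was at 168, 189 and 191 TPM in the siNC libraries and 234, 216 and 282 TPM in the siQ61K libraries with DMSO. The groups did not overlap, and the third knockdown library was the highest of all 12. The ratio of mean levels was 1.34 and the log2 fold change 0.41 (SE 0.11, adjusted p = 0.0117). The call was lost after the GC correction (0.17, adjusted p = 0.0618) and without the first siNC library (0.35, adjusted p = 0.0562), and it was kept without the third knockdown library (0.30, adjusted p = 0.0410).

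FGFR1 was at 27.4, 34.1 and 32.7 TPM in the siNC libraries and 39.9, 36.6 and 54.2 TPM in the siQ61K libraries with DMSO, again without overlap. Its log2 fold change of 0.45 (SE 0.17) missed the threshold (adjusted p = 0.0580), and it was past it in 6 alternatives, among them the GC correction (0.29, adjusted p = 0.0423). Without the third knockdown library the difference was 0.28 (adjusted p = 0.204). FGFR1 thus lay close to the threshold on either side.

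PDGFRB was at 2.12, 2.99 and 2.85 TPM in the siNC libraries and 3.53, 3.17 and 7.27 TPM in the siQ61K libraries with DMSO. The groups did not overlap, but the difference of 0.57 (SE 0.27) was not called (adjusted p = 0.133), and it was 0.26 without the third knockdown library and 0.20 after the GC correction. IRS2, at 4.22, 5.29 and 4.03 TPM in the siNC libraries and 5.07, 4.71 and 8.62 TPM in the siQ61K libraries, overlapped and was not called (0.34, SE 0.22, adjusted p = 0.272). Its GC-corrected value was -0.07.

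MET had the other sign, at 60.2, 69.0 and 49.9 TPM in the siNC libraries and 44.3, 40.4 and 62.9 TPM in the siQ61K libraries with DMSO. The ranges overlapped and the difference of -0.29 (SE 0.18) was not called (adjusted p = 0.244), though with sample weights it was called lower (-0.49, adjusted p = 0.00612). ERBB3 was at 0.736, 0.934 and 0.380 TPM in the siNC libraries and 0.453, 0.406 and 0.797 TPM in the siQ61K libraries. These levels overlapped, with a difference of -0.11 (SE 0.25, adjusted p = 0.769) and a 95% interval of -0.65 to 0.43. IGF1R was at 7.49, 1.58 and 0.560 TPM in the siNC libraries and 0.638, 0.186 and 8.07 TPM in the siQ61K libraries. Each group thus held 1 library far above the other two, the SE of the difference was 0.78, and a change of over 1 log2 unit either way lies within its 95% interval of -1.995 to 1.36.

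In all, 2 of the 8 tested members were called higher and 0 lower with the knockdown in DMSO, where 31.5% of all genes tested were called, 16.6% higher and 14.8% lower. The groups of 4 of the 8 members did not overlap, all higher, where 25.4% of all genes did so in that direction. The median log2 fold change of the tested members was 0.37, beside 0.01 for all genes, and after the GC correction it was 0.05 beside 0.00. After that correction 2 members were again called higher, now ERBB2 and FGFR1, where 13.1% of all genes were. The transcripts of ERBB2, PDGFRB, IRS2 and AXL have a GC content of 57.5%, 57.6%, 58.7% and 53.9%, and that of MET is 42.4%. Those of ERBB3, IGF1R and FGFR1 have 52.0%, 51.7% and 51.3%. Across 14299 genes the knockdown fold change in DMSO correlated with GC content (Spearman's rho 0.505, across genes, which are not independent replicates).

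**Figure D2:**
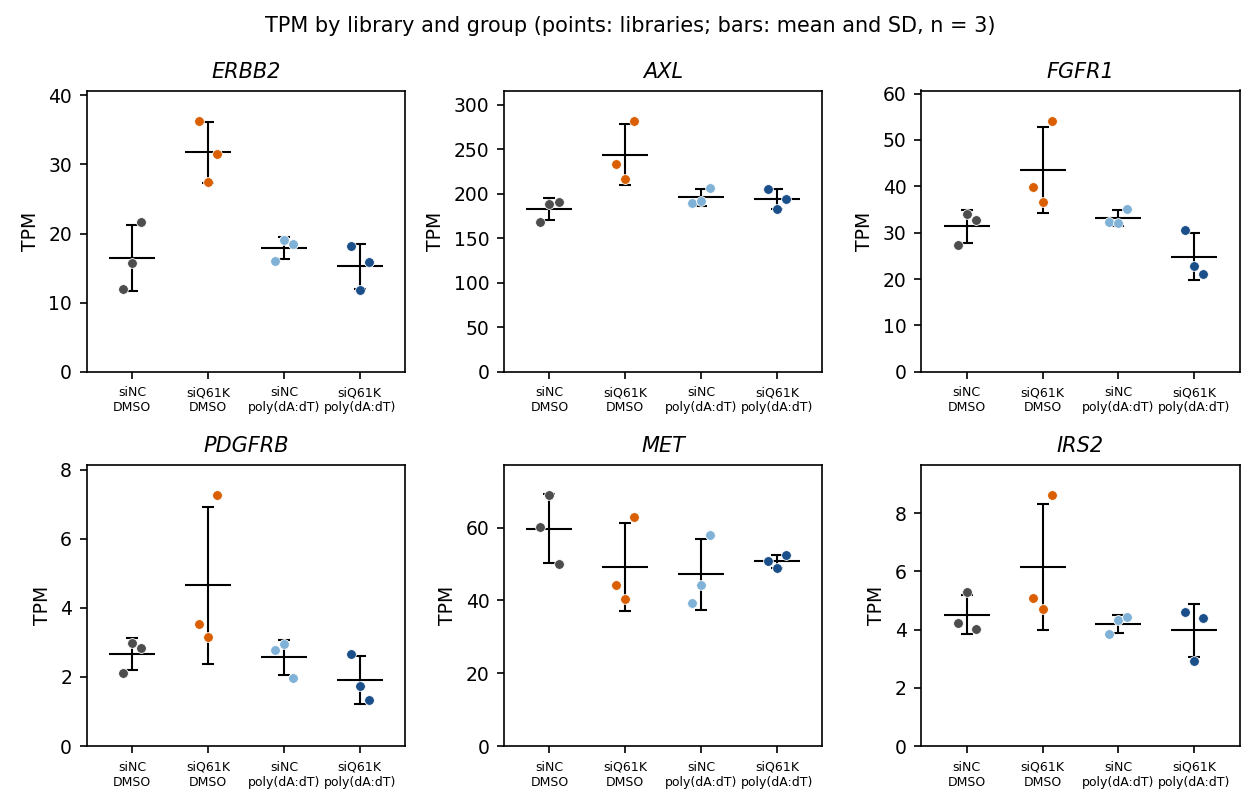
TPM of ERBB2, AXL, FGFR1, PDGFRB, MET and IRS2 in each library (points) with the mean and SD of each group (bars, n = 3), on a linear axis from 0 for each member. In siQ61K with DMSO the libraries of ERBB2, AXL, FGFR1 and PDGFRB all lie above those of siNC with DMSO, and with poly(dA:dT) ERBB2 and AXL overlap between the siRNAs.

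The windows around the start of ERBB2 and AXL, the called receptors, are shown with the motif letters found in them. They come from RefSeq on GRCh38.p14 and run from 250 bases before to 50 bases after the annotated gene start, 5′ to 3′ on the gene's strand. Capitals mark the ETS core CCGGAAG, or CTTCCGG on the other strand, in ERBB2 at chr17:39687844-39688143 (+), and the AP-2 palindrome GCCNNNGGC in AXL at chr19:41218973-41219272 (+).
ERBB2: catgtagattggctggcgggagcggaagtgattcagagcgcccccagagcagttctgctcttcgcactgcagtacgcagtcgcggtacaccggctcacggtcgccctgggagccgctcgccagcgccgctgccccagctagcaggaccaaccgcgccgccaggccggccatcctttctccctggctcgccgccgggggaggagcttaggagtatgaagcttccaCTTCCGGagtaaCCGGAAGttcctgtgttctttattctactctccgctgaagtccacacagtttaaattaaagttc
AXL: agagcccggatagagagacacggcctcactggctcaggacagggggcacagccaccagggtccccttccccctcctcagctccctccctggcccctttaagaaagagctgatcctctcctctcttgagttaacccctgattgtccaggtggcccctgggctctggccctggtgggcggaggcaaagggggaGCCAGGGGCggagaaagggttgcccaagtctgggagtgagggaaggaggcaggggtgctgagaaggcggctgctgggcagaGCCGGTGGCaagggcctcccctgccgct

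The ERBB2 window holds the ETS letters at 2 places, in opposite orientations and 5 bases apart, 26 and 14 bases before the gene start. ERBB2 alone of the 8 members in the RefSeq table held them, where 10.7% of 27305 promoters did. This window belongs to the upstream start of ERBB2: 2 of 11 coding transcripts of GENCODE 29 begin in it, and the principal transcript begins 11986 bases downstream. The AP-2 letters stood at 2 places in the AXL window and in 4 of the 8 members (AXL, IGF1R, INSR and IRS2), where 23% of promoters held them. No member's window held the AP-1 letters TGACTCA, the FOXO letters GTAAACA or the TEAD letters GGAATG, on either strand, which 4.92%, 3.41% and 14% of promoters held. ERBB3 and FGFR1 had no entry. The letters describe these windows only, and TPM per gene does not say which start was used.

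With poly(dA:dT) present, no member was called higher after the knockdown. ERBB2 was at 16.1, 19.0 and 18.5 TPM in the siNC libraries and 18.2, 11.8 and 15.9 TPM in the siQ61K libraries. The siRNA groups overlapped, with a log2 difference of -0.23 (SE 0.20, adjusted p = 0.455) and a 95% interval of -0.67 to 0.21. AXL was at 189.6, 192 and 206 TPM in the siNC libraries and 206, 183 and 194 TPM in the siQ61K libraries. These levels overlapped as well, and the difference of -0.01 (SE 0.11, adjusted p = 0.943) had a 95% interval of -0.25 to 0.22. The GC-corrected values of AXL were alike in the 2 settings and not called. They were 0.17 with poly(dA:dT) (adjusted p = 0.0664) and 0.17 with DMSO (adjusted p = 0.0618).

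FGFR1 and ERBB3 were lower after knockdown with poly(dA:dT) without overlap, and neither was called. FGFR1 was at 32.3, 32.1 and 35.1 TPM in the siNC libraries and 30.6, 22.7 and 21.2 TPM in the siQ61K libraries. The difference was -0.42 (SE 0.17, adjusted p = 0.0918), and it was past the threshold without the first siQ61K library (-0.57, adjusted p = 0.0224) and with sample weights (-0.47, adjusted p = 0.0235). ERBB3 was at 1.17, 1.03 and 2.11 TPM in the siNC libraries and 0.432, 0.458 and 0.476 TPM in the siQ61K libraries, a difference of -0.72 (SE 0.25, adjusted p = 0.0570). ERBB3 could be tested only because of the siNC group with poly(dA:dT), which is the high group in this comparison, so its difference is a description.

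The other members overlapped between the siRNAs with poly(dA:dT). PDGFRB was at 2.77, 2.95 and 1.98 TPM in the siNC libraries and 2.67, 1.74 and 1.33 TPM in the siQ61K libraries. MET was at 39.3, 44.3 and 57.9 TPM in the siNC libraries and 50.8, 48.9 and 52.4 TPM in the siQ61K libraries. IRS2 was at 3.84, 4.33 and 4.43 TPM in the siNC libraries and 4.61, 2.93 and 4.39 TPM in the siQ61K libraries. Their differences were -0.31, 0.12 and -0.08, with no adjusted p below 0.459. IGF1R was at 0.280, 0 and 0.491 TPM in the siNC libraries and 1.31, 4.13 and 0 TPM in the siQ61K libraries, again with 1 siQ61K library far from the rest. The difference for IGF1R was 0.88 (SE 0.78, adjusted p = 0.453). Its 95% interval of -0.80 to 2.55 does not exclude a large rise. By limma, 0 of the 8 members were called, where 21.4% of all genes were called, 8.71% higher and 12.6% lower (1282 and 1862 genes, or 1689 and 1612 with quantile normalization). An unadjusted limma p below 0.05 was found for 2 members, FGFR1 and ERBB3, and for 5116 of the 14722 genes. Of the members, FGFR1 was lower without overlap, as were 21% of all genes, and ERBB3 is left out of this count because the same group admitted it to the test. After the GC correction 0 members were called, where 27.1% of all genes were.

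The effect of the knockdown itself differed between DMSO and poly(dA:dT) for ERBB2 and FGFR1. The knockdown effect on ERBB2 was lower by 1.16 log2 units with poly(dA:dT) than with DMSO (interaction -1.16, SE 0.29, adjusted p = 0.0195), and that on FGFR1 by 0.86 (interaction -0.86, SE 0.24, adjusted p = 0.0265). AXL missed the threshold (-0.42, SE 0.15, adjusted p = 0.0702), as did PDGFRB (-0.87, SE 0.39, adjusted p = 0.133) and IRS2 (-0.42, SE 0.31, adjusted p = 0.378). In the interaction 2 of 8 members were called, both lower, where 18.1% of all genes were called and 12.1% were lower (883 higher and 1779 lower, or 1355 and 1477 with median-of-ratios scaling). After the GC correction ERBB2 was at -0.56 (adjusted p = 0.190), FGFR1 at -0.56 (adjusted p = 0.0582) and AXL at -0.0032, 0 members were called, and 2.08% of all genes were. Without the pair of libraries at the extremes of scaling, ERBB2 was at -1.001 (adjusted p = 0.0726) and FGFR1 at -0.65 (adjusted p = 0.0928). ERBB2 also lost its call without the first siNC or the first siQ61K library with DMSO (adjusted p = 0.0509 and 0.05002), and FGFR1 without any 1 of 5 single libraries (adjusted p of 0.0507 to 0.0727): the first siNC with DMSO, the first and the third siNC with poly(dA:dT), and the second and the third siQ61K with poly(dA:dT). The interaction followed GC content across genes with a Spearman's rho of -0.656, and the part of GC content in the members' values was not tested beyond this correction.

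No member was called for poly(dA:dT) alone under siNC: 0 of 8 were called by limma, and 0.122% of all genes were called (11 higher and 7 lower, or 11 and 4 with median-of-ratios scaling). An unadjusted limma p below 0.05 was found for 0 members and for 1640 of the 14722 genes. ERBB3 was higher without overlap, from 0.736, 0.934 and 0.380 TPM to 1.17, 1.03 and 2.11 TPM (0.52, SE 0.25, 95% interval -0.02 to 1.06, adjusted p = 0.452). It passed the filter through this high group alone, so the difference is again a description, and 7.89% of all genes were higher without overlap. IGF1R was lower without overlap, from 7.49, 1.58 and 0.560 TPM to 0.280, 0 and 0.491 TPM (-1.39, SE 0.78, 95% interval -3.06 to 0.29, adjusted p = 0.498), where 10% of all genes were lower. Both intervals include 0 and also a difference of 1 log2 unit in the direction seen, so neither no change nor a change of that size was excluded.

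Under siQ61K, poly(dA:dT) lowered 4 of 8 members, where 25.2% of all genes were called and 18.3% were lower. The median of all genes was itself -0.15, and median-of-ratios scaling moved it by 0.14 and turned 1019 higher and 2693 lower calls into 1899 and 1654. These comparisons share the siQ61K libraries with DMSO with the first knockdown comparison, and those libraries are where ERBB2, FGFR1, PDGFRB and AXL stood highest. ERBB2 fell by 1.02 on the log2 scale (SE 0.20, adjusted p = 0.00606), FGFR1 fell by 0.78 (SE 0.17, adjusted p = 0.00733), PDGFRB fell by 0.91 (SE 0.27, adjusted p = 0.0288) and AXL fell by 0.32 (SE 0.11, adjusted p = 0.0437). These 4 and IRS2 (-0.50, adjusted p = 0.119) had groups that did not overlap, where 27.6% of all genes were lower without overlap. After the GC correction FGFR1 alone was called (-0.41, adjusted p = 0.0278), where 3.34% of all genes were lower, ERBB2 was at -0.48 (adjusted p = 0.0779), PDGFRB at -0.34 (adjusted p = 0.326), and AXL changed sign to 0.10 (adjusted p = 0.349). Without the pair of libraries at the extremes of scaling 0 members were called, with ERBB2 at -0.86 (adjusted p = 0.0795). PDGFRB was called in 16 of 23 alternatives and not without the third siQ61K library with DMSO (-0.60, adjusted p = 0.109) or without the second or the third with poly(dA:dT) (adjusted p = 0.0843 and 0.111). AXL was called in 9 of 23, and lost its call with median-of-ratios scaling (-0.15, adjusted p = 0.192) and without any 1 of 8 single libraries (adjusted p of 0.0525 to 0.158).

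**Figure D3:**
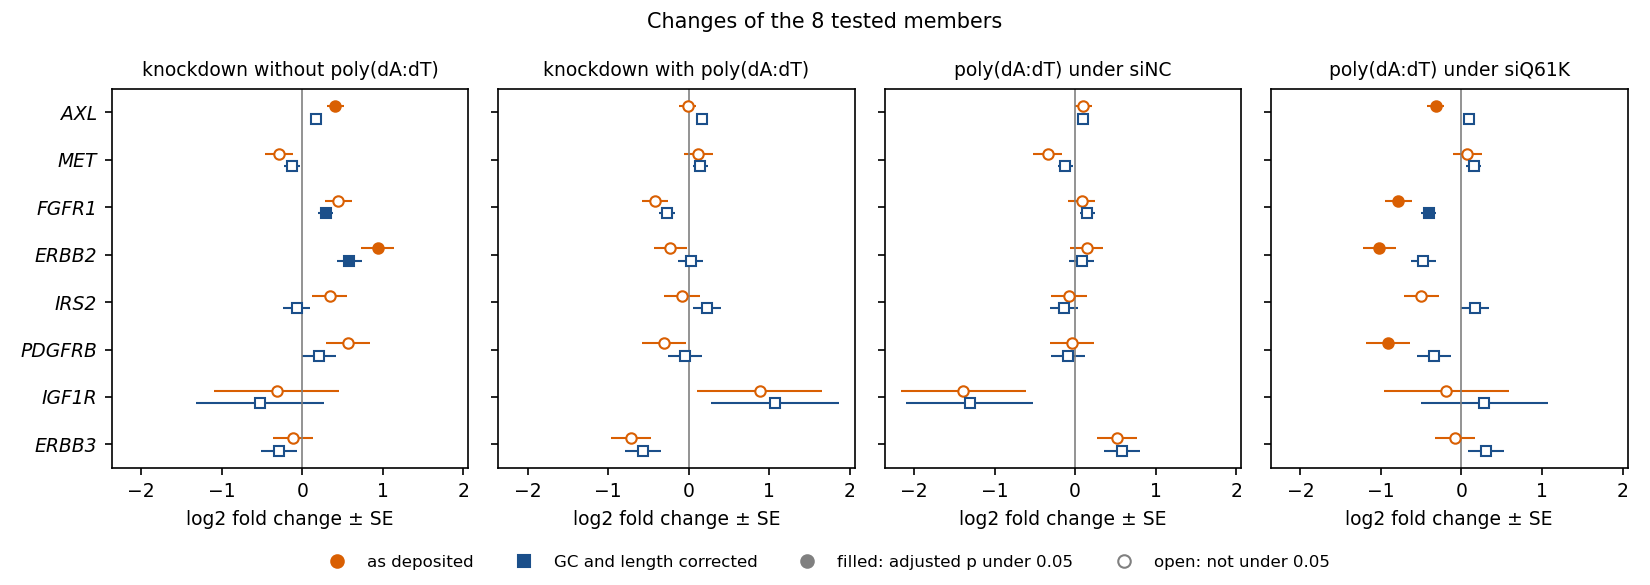
Log2 fold change of log2(TPM + 1) with its standard error (lines) for the 8 tested members in the 4 comparisons between groups, as deposited (circles) and after the GC correction (squares), filled where the adjusted p is below 0.05. ERBB2 is at 0.93 with DMSO and at -0.23 with poly(dA:dT), or at 0.58 and 0.03 after the GC correction. In DMSO the GC-corrected values of ERBB2, AXL, FGFR1, PDGFRB, MET and IRS2 lie closer to 0 than the uncorrected ones. Those of ERBB3 and IGF1R lie farther from 0.

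Among ligands and ligand-binding proteins of the member receptors, GAS6 and PROS1, ligands of the AXL receptor family, rose with knockdown in both settings. GAS6, the main AXL ligand, went from 119, 147 and 103 TPM under siNC to 400.3, 418 and 499 TPM in the siQ61K libraries with DMSO, and from 119.7, 148 and 159 TPM to 356, 321 and 289 TPM with poly(dA:dT). The groups lay far apart both times, with log2 fold changes of 1.84 (SE 0.15, adjusted p = 5.84e-06) and 1.18 (SE 0.15, adjusted p = 0.000124). The GC-corrected values were 1.40 and 1.43. PROS1, which encodes protein S, a ligand of the related receptors TYRO3 and MERTK, rose from 7.99 ± 0.783 to 16.2 ± 3.38 TPM (SD, n = 3) with DMSO and from 6.90 ± 1.76 to 16.0 ± 3.21 TPM with poly(dA:dT). Its log2 fold changes were 0.92 (adjusted p = 0.00426) and 1.11 (adjusted p = 0.00188).

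In these and the following lists, counts of genes called higher and lower stand beside 16.6% and 14.8% of all genes for knockdown with DMSO, beside 8.71% and 12.6% with poly(dA:dT), and beside 13.1% and 14.5% for GC-corrected values with DMSO. Of 29 genes in this ligand list 14 were tested. With DMSO 5 were higher and 0 lower, namely GAS6, PROS1, PDGFB, IGF2R and IGFBP7, with a list median of 0.19 beside 0.01 for all genes. With poly(dA:dT) 5 were higher, namely GAS6, PROS1, PDGFB, NRG1 and PDGFC, and 1 lower, IGFBP6, with a list median of 0.15 beside -0.07. NRG1, the neuregulin that binds ERBB3, was at 13.5 ± 2.25 and 15.2 ± 0.353 TPM with DMSO (0.17, adjusted p = 0.452) and rose from 10.8 ± 1.55 to 18.9 ± 3.39 TPM with poly(dA:dT) (0.75, adjusted p = 0.00597). PDGFB, a ligand of PDGFRB, was low, rising from 0.533 ± 0.313 to 3.47 ± 0.233 TPM with DMSO (1.56) and from 0.805 ± 0.134 to 2.62 ± 1.44 TPM with poly(dA:dT) (0.92, adjusted p = 0.0393). It lay below 1 TPM in all siNC libraries and passed the filter through the knockdown libraries alone, so its differences are a description and 4 of the 5 higher genes in each setting are free of this limit. PDGFB, IGFBP7 and PDGFC were named after their values were seen. HGF, the MET ligand, and INS were listed at 0 in all 12 libraries, IGF1 at no more than 0.377 TPM and IGF2 at no more than 0.0646 TPM.

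Among proteins that dampen receptors, ERRFI1, a feedback inhibitor of the ERBB kinases, fell the most with the knockdown in DMSO. It was at 388, 428 and 346 TPM in the siNC libraries and 156, 144 and 185 TPM in the siQ61K libraries with DMSO, and at 276, 288 and 322 TPM and 162, 142 and 167 TPM with poly(dA:dT). The siRNA groups did not overlap in either setting, and the log2 fold changes were -1.26 (adjusted p = 1.85e-05) and -0.91 (adjusted p = 0.00018). PTPN12, a tyrosine phosphatase, fell with DMSO (-1.04, adjusted p = 0.000513) and was at -0.43 with poly(dA:dT) (adjusted p = 0.0797), where the GC-corrected value of -0.47 was called (adjusted p = 0.00463). LRIG3, of a family that regulates receptor turnover, rose in both settings (0.82 and 1.01), and the phosphatase PTPRF and the cytokine feedback gene SOCS3 rose with DMSO (1.07 and 0.99, or 0.64 and 0.60 after the GC correction). SOCS5 fell with DMSO (-0.69, adjusted p = 0.00536) and was at -0.03 with poly(dA:dT) (adjusted p = 0.914). SOCS6 fell with DMSO (-0.55, adjusted p = 0.0134) and with poly(dA:dT) (-0.55, adjusted p = 0.0196). With DMSO the GC-corrected value of SOCS6 was not called (-0.25, adjusted p = 0.145). Of 21 dampers tested, 3 were higher and 5 lower with DMSO and 1 was higher and 3 lower with poly(dA:dT), with list medians of 0.00 and -0.13. With GC-corrected values 4 were higher and 6 lower with DMSO, with a median of -0.19.

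Other receptor tyrosine kinases moved in both directions. Of 45 listed, 21 were tested, 5 were higher and 1 lower with DMSO, and 1 was higher and 2 lower with poly(dA:dT), and the list medians of 0.13 and -0.24 stand beside 0.01 and -0.07 for all genes. GC-corrected values gave 2 higher and 2 lower with DMSO, and the median turned to -0.12. EPHB2, an ephrin receptor, rose from 43.7 ± 10.5 to 110.3 ± 30.7 TPM with DMSO (1.31, adjusted p = 0.00132) and was at 40.9 ± 4.68 and 49.2 ± 14.5 TPM with poly(dA:dT) (0.23, adjusted p = 0.526). EPHB2 was called higher after the GC correction in both settings (0.97, adjusted p = 0.000412, and 0.49, adjusted p = 0.0220). ROR1, a low receptor named after its values were seen, was higher without overlap in knockdown libraries of both settings. With DMSO its TPM was 2.02, 2.32 and 1.86 in control libraries, against 3.66, 3.59 and 5.53 in knockdown libraries. When poly(dA:dT) was present, control libraries had 1.65, 1.18 and 1.93, against 3.92, 4.03 and 4.23 in knockdown libraries. The levels of ROR1 are a description. TYRO3, of the AXL family, rose with DMSO (0.60, adjusted p = 0.0282; 0.36 and adjusted p = 0.160 after the GC correction) and was at -0.29 with poly(dA:dT). DDR1, a collagen receptor, rose with DMSO (0.83, adjusted p = 0.0201), and this call was lost after the GC correction (0.37, adjusted p = 0.138). EPHA2, itself an ERK output gene, was at -0.39 with DMSO (adjusted p = 0.0923) and fell by 1.43 with poly(dA:dT). With DMSO its GC-corrected value of -0.81 was called (adjusted p = 0.000174), 1 of 7 alternatives of 23 that called it. EGFR, with 16.5 ± 2.30 and 13.8 ± 5.48 TPM in DMSO, was not called in either setting. RYK fell with DMSO (-0.40, adjusted p = 0.00665), and this call was lost after the GC correction (-0.05, adjusted p = 0.720). With poly(dA:dT) RYK was at -0.22 (adjusted p = 0.108). TIE1 was at -0.31 with DMSO (adjusted p = 0.216) and fell with poly(dA:dT) (-0.87, adjusted p = 0.00441).

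Among adaptors, IRS1 was called in neither setting (0.29, adjusted p = 0.30, and -0.25, adjusted p = 0.404), as was IRS2. PIK3R3, a regulatory subunit of PI3K, rose from 2.17 ± 0.319 to 6.28 ± 0.978 TPM with DMSO (1.20, adjusted p = 0.00113) and from 1.42 ± 0.603 to 5.36 ± 0.552 TPM with poly(dA:dT) (1.42, adjusted p = 0.000453). Its relative PIK3R2 rose with DMSO (1.28, adjusted p = 0.000301, or 0.76 after the GC correction) and was at -0.11 with poly(dA:dT). SH2B3 was at -0.40 with DMSO (adjusted p = 0.123) and fell with poly(dA:dT) (-0.80, adjusted p = 0.00887). Of 27 adaptors tested, 4 were higher and 1 lower with DMSO and 1 was higher and 2 lower with poly(dA:dT), with list medians of 0.00 and -0.23. With GC-corrected values 2 were higher and 4 lower with DMSO, so the balance turned, and the median was -0.11.

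Some genes known to be activated by FOXO factors rose in both settings and others of the list fell, while no FOXO-responsive member was called. Of 22 genes in the FOXO list, 5 were higher and 1 lower with DMSO and the same numbers with poly(dA:dT), with medians of 0.12 and 0.00. The lower gene with DMSO was SESN1 (-0.89, adjusted p = 0.00223, or -0.73 after the GC correction). SESN1 was at -0.38 with poly(dA:dT) (adjusted p = 0.142). The lower gene with poly(dA:dT) was EIF4EBP1 (-0.86, adjusted p = 0.0177, or -0.63 after the GC correction). One of the 5 higher with poly(dA:dT), TNFSF10, which encodes the death ligand TRAIL, was below 1 TPM in all siNC libraries and passed the filter through the knockdown libraries alone. It was named after its values were seen. PIK3IP1, a negative regulator of PI3K, rose from 4.08 ± 0.945 to 15.0 ± 0.401 TPM with DMSO (1.67, adjusted p = 5.71e-05) and from 3.32 ± 0.623 to 11.5 ± 2.16 TPM with poly(dA:dT) (1.53, adjusted p = 9.6e-05). CITED2, a transcriptional coregulator, rose by 2.03 and 1.29, and SOD2, a mitochondrial superoxide dismutase that interferon and NF-kB signals also induce, by 1.44 and 1.45. FOXO3 rose by 0.51 (adjusted p = 0.0446) and 0.57 (adjusted p = 0.0384) and was named after its values were seen. ERBB3, IGF1R and IRS2 were called in neither setting and INSR was listed near 0.

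Of 13 tested regulators known to act on receptor genes, 3 were higher and 2 lower with DMSO and 1 was higher and 5 lower with poly(dA:dT), with medians of -0.21 and -0.48. MYC rose in both settings (0.84 and 0.45). FOSL1, an AP-1 subunit and ERK target, fell in both (-0.82 and -1.38), as did WWTR1, the YAP paralogue TAZ (-0.90 and -0.91). JUN rose with DMSO (0.85, adjusted p = 0.00331, or 0.53 after the GC correction) and was at -0.25 with poly(dA:dT).

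**Figure D4:**
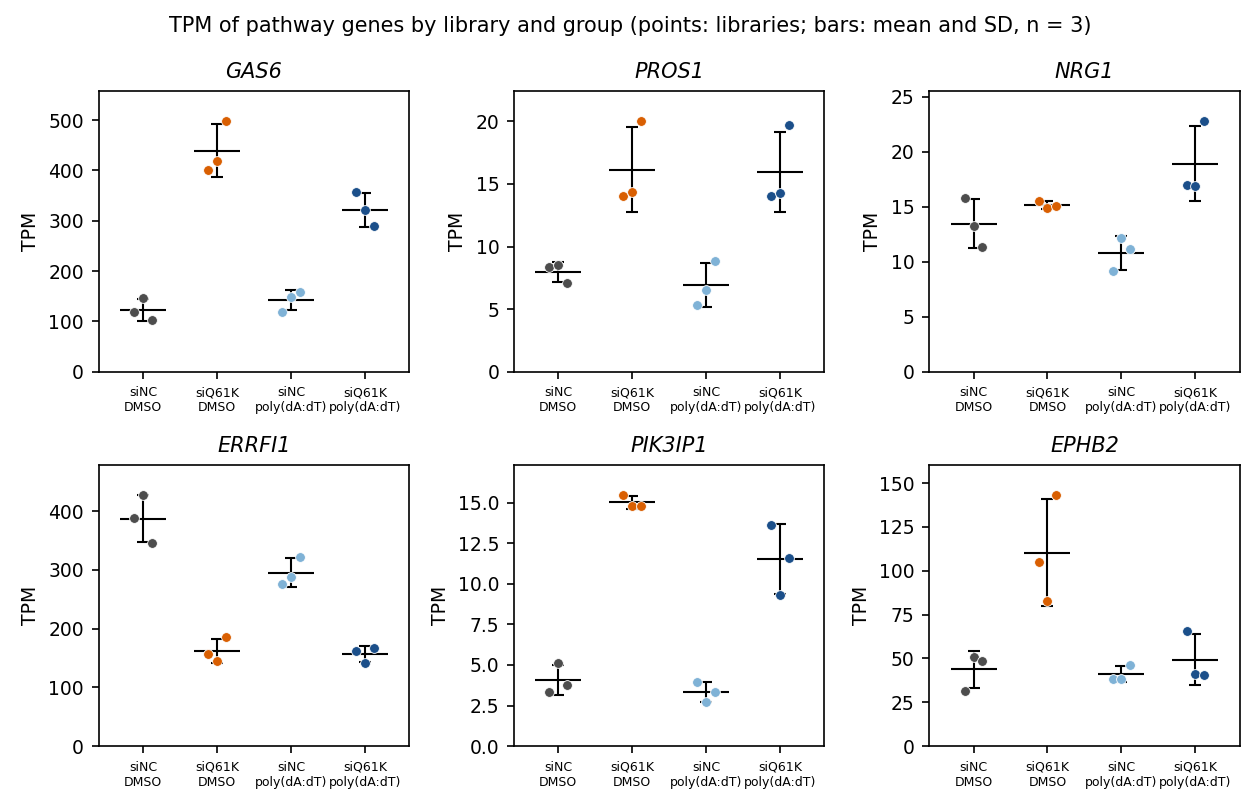
TPM of the ligands GAS6, PROS1 and NRG1, the damper ERRFI1, the PI3K regulator PIK3IP1 and the receptor EPHB2 in each library (points) with the mean and SD of each group (bars, n = 3), on linear axes from 0. GAS6, PROS1 and PIK3IP1 are higher and ERRFI1 lower in siQ61K than in siNC libraries with DMSO and with poly(dA:dT), while the deposited levels of EPHB2 overlap with poly(dA:dT).

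Among themselves, ERBB2, AXL, FGFR1, PDGFRB and IRS2 varied alike over the 12 libraries as deposited. After the GC correction every pair was less alike, and some pairs were no longer alike. Pearson's r of log2(TPM + 1) was 0.79 between ERBB2 and FGFR1, 0.85 between ERBB2 and AXL and 0.92 between PDGFRB and FGFR1. After the GC correction the same pairs had r of 0.48, 0.25 and 0.65. FGFR1 went from 0.80 to -0.37 with IRS2 and from 0.80 to -0.19 with AXL. ERBB2 went from 0.66 to -0.19 with IRS2 and from 0.72 to 0.21 with PDGFRB. PDGFRB went from 0.80 to -0.02 with AXL and from 0.82 to 0.16 with IRS2. AXL went from 0.82 to 0.39 with IRS2. These are descriptions over libraries of 4 groups that share the same treatments. Likeness to other genes was measured in the same way. For ERBB2 they were TAF1C (r = 0.97, and 0.84 after the correction) and ZNF385A (0.96 and 0.87). For AXL they were TMEM63B (0.97 and 0.59) and AMOTL2 (0.97 and 0.73). For FGFR1 they were KDM4B (0.99 and 0.17) and GBF1 (0.98 and 0.88).

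For the other members r fell after the correction by differing amounts. PDGFRB was most like NPHP4 (0.95 and 0.49) and KSR1 (0.94 and 0.79), and MET most like WASHC4 (0.99 and 0.54) and IPO7 (0.97 and 0.46). IRS2 was most like NOP2 (0.96 and 0.84) and GNB5 (0.96 and 0.14). The low members ERBB3 and IGF1R had weaker neighbours, CDK5RAP1 (0.88 and 0.80) and DENND3 (0.83 and 0.83) for ERBB3, and PLSCR4 (0.91 and 0.86) and ATP6V0A2 (0.84 and 0.69) for IGF1R.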

How the data were processed

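The authors deposited 1 table of TPM per gene symbol for 12 libraries. Total RNA libraries were prepared with the NEBNext Ultra kit for Illumina NovaSeq sequencing, per the labels' protocols. Salmon 0.8.0 and hg19 are named in the submitters' processing notes, and which annotation was used is not given in the sources used here. Read depth cannot be recovered from TPM, so counting error is unknown. Column abbreviations were read as the siRNA and agent of the sample titles, an inference from names. Of 56227 entries, 984 shared a symbol and were left out, and 14722 genes reached 1 TPM in 3 or more of the 12 libraries and were tested. Log2(TPM + 1) was fitted with limma 3.58.1 in R 4.3.3, with a variance trend, 1 model for all 4 groups, and Benjamini-Hochberg adjustment at 0.05. The fit was tested on simulated data. GC content and length came from the longest GENCODE 29 transcript and were known for 14299 genes, and each library was smoothed for both by lowess (span 0.3).

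Named were all members, NRAS, ERBB4 and IRS1, from each list up to 3 of the highest and 3 of the lowest called genes with a mean of at least 5 TPM, and the 2 genes most correlated with each member. The members, lists and rules were chosen with earlier results of these data known. Promoter windows came from RefSeq. Alternatives were pseudocounts of 0.1 and 5, no filter, other scalings, a robust trend, sample weights, only the groups compared, a replicate block, the GC correction and left-out libraries.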

Additional observations from a re-analysis of the deposited data

Results flagged for a closer look

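The knockdown effect differed between poly(dA:dT) and DMSO, by the interaction term in limma at an adjusted p below 0.05, for 2 members and 18 of the 39 named genes of the pathway lists, where 18.1% of all genes were called and 12.1% were lower. The 39 genes were named for extreme calls in one or the other knockdown comparison, which favours a difference between settings, so their count is a description. For the members the difference, as the effect with poly(dA:dT) minus that with DMSO, was -1.16 for ERBB2 and -0.86 for FGFR1. In the lists, 17 differences were negative and 1 positive. Among receptors and their ligands they were -1.03 for EPHA2, -1.08 for EPHB2, -0.89 for TYRO3, -0.66 for GAS6 and -0.71 for IGFBP6. Among adaptors they were -1.39 for PIK3R2, -0.99 for SH2B1 and 0.93 for GRB14. Among dampers they were -1.05 for PTPRF, -1.23 for SOCS3 and -0.79 for FGFRL1. Among transcription factors, coregulators and FOXO-list genes they were -0.75 for CITED2, -0.59 for CTBP1, -1.12 for EIF4EBP1, -0.85 for ETV4, -0.57 for FOSL1, -1.10 for JUN and -0.89 for TEAD4. After the GC correction 0 of the 18 list genes and 0 of the 2 members were called.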

How the results depend on the processing

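Without read depth, low levels have no counting interval. Of the members' knockdown calls with DMSO, ERBB2 held in all 23 alternatives and AXL in 21. All counts below are genes called by limma. With sample weights, genes called rose from 4632 to 7588 (4 members, MET being lower) for knockdown with DMSO, from 18 to 332 for poly(dA:dT) under siNC, and from 2662 to 5580 (4 members) for the interaction. For knockdown with poly(dA:dT), 1 member was called with sample weights (FGFR1) and 1 with median-of-ratios scaling (ERBB3, which passed the filter through the high group of this comparison). The GC correction gave 29 genes for poly(dA:dT) under siNC, 1250 instead of 3712 (1 member instead of 4) for poly(dA:dT) under siQ61K, and 297 (0 members) for the interaction. It reversed AXL for poly(dA:dT) under siQ61K (0.10), CTBP1 (-0.10) and IGFBP6 (-0.29) for knockdown with DMSO, and CTBP1 (0.12) and GAS6 (0.031) in the interaction. Without a filter, 2328 genes (2 members) were called for poly(dA:dT) under siQ61K and 1026 (0 members) for the interaction. With only the groups compared, 2207 genes (2 members) were called for poly(dA:dT) under siQ61K. Without the third siQ61K library with DMSO and the second with poly(dA:dT) together, 137 genes (0 members) were called for poly(dA:dT) under siQ61K and 550 (0 members) for the interaction; fewer samples are part of this, and other causes were not tested.

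Leaving out 1 library at a time gave 3045 to 4998 genes (1 to 3 members) for knockdown with DMSO, 2108 to 3750 (0 to 1) for knockdown with poly(dA:dT), 7 to 37 (0) for poly(dA:dT) under siNC, 1628 to 4608 (2 to 4) for poly(dA:dT) under siQ61K and 980 to 3886 (0 to 3) for the interaction. The lowest came without the first siNC library with DMSO for the first and the last of these, and without the third siQ61K library with poly(dA:dT) for poly(dA:dT) under siQ61K. Correlations of library deviations ran from -0.26 to 0.23 for same-numbered libraries (median 0.0385) and from -0.20 to 0.28 for differently numbered ones (median -0.0178). Of the 12 libraries, 4 correlated best with their own number. Outside siNC with DMSO, all same-numbered pairs had a positive r, of 0.040 to 0.23. Same-numbered pairs that included an siNC library with DMSO had r of -0.26 to 0.037. With a replicate block, 4436, 2957, 22, 3433 and 2243 genes were called in the same order, with 2, 0, 0, 4 and 2 members.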
